A study of Rattus norvegicus with 16 samples.

Results

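A set of 9 myelin genes of oligodendrocytes was followed across 16 arrays: Mbp, Mog, Mag, Mobp, Cnp, Mal, Cldn11, Ugt8 and Sox10. A probe belonged to the set when its RefSeq accession mapped to one of these symbols, and the brightest such probe stood for its gene. That rule found 13 probes for the 9 genes, which are 9 of 27885 measured features, and all 9 genes had a probe well above background on all 16 arrays. The groups held 4 male Wistar rats each, with 1 array for each rat, and RNA came from the right hippocampus. All rats received a guide cannula to the right amygdala at 5 weeks of age and an infusion of 1.0 µl of solution 5 days later. Controls received saline at pH 2.2 and were sacrificed on day 15, while the Fe groups received 100 mM FeCl3 in saline at pH 2.2 and were sacrificed on day 5, day 15 or day 30. FeCl3 in the amygdala is a model of recurrent limbic seizures, and per the series text seizures recurred in the Fe rats, at a rate that was not measured. Control tissue was taken on day 15 alone, and so for Fe day 5 and Fe day 30 age and days after infusion differ from control along with the iron.

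Oligodendrocytes wrap axons of the central nervous system in a stack of membrane, the myelin sheath, which speeds conduction and supports the axon. In the hippocampus the sheaths run mainly in the fibre tracts, such as the alveus and fimbria, and more thinly among the neurons. The 9 genes cover the main parts of the sheath. Mbp and Mobp encode basic proteins that hold the cytoplasmic faces of compact myelin together, Mog lies on the outermost surface, Mag on the membrane that faces the axon, and Cnp in the non-compact cytoplasmic channels. Mal encodes a raft proteolipid, Cldn11 the claudin of the tight junctions of central myelin, and Ugt8 the enzyme that makes galactosylceramide, a major myelin lipid. Sox10 is the transcription factor that defines the oligodendrocyte lineage and drives many myelin genes.

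Promoter sequences are shown for Mobp, Mag, Cnp and Mal as examples, and SOX words were searched because Sox10 is itself a member of the set. Of the 9 genes, Sox10 followed the score of the other members least closely (r = 0.62). RefSeq windows on GRCr8, from 250 bases before to 50 bases after the transcript start, were found for 7 of the 9 genes in 8 windows, of which Mbp had more than 1. Mog and Sox10 had no entry in the table. Capitals mark the letters ACAAAG or ACAATG, words that SOX proteins can bind, searched on both strands, so that a match on the opposite strand reads CTTTGT or CATTGT. By their letters no match can overlap another. The windows, 5′ to 3′ along the gene, lie at chr8:128746982-128747281 (+) for Mobp, chr1:95290995-95291294 (-) for Mag, chr10:86011254-86011553 (+) for Cnp and chr3:135341374-135341673 (-) for Mal.
Mobp: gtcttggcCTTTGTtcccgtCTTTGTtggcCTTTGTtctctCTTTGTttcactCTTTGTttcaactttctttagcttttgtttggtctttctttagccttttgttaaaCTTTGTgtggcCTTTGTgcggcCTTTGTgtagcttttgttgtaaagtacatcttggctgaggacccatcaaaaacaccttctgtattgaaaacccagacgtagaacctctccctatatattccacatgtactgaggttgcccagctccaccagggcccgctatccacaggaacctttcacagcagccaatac
Mag: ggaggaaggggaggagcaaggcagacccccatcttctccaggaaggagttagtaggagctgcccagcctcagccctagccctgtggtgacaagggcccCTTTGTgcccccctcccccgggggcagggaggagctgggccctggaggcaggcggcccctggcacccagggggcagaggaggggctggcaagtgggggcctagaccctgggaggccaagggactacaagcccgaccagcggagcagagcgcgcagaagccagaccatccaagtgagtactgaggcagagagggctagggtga
Cnp: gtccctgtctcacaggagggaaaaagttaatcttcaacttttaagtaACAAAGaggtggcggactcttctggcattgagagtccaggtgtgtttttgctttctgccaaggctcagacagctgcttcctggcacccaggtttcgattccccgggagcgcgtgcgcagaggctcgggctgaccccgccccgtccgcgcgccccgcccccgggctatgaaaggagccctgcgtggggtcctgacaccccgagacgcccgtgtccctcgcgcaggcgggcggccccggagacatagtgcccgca
Mal: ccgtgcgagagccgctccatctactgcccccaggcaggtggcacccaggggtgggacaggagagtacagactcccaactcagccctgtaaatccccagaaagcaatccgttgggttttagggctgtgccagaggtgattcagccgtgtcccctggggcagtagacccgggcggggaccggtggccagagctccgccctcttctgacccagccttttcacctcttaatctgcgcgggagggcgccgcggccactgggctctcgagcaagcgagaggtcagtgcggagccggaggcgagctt
The Mobp window held 8 matches, all reading CTTTGT, the first 242 and the last 120 bases before the start. Among all 33469 promoter windows of the table, 3 (0.00896%) held ACAAAG on either strand 8 times or more. Mag held 1 match 152 bases before its start and Cnp 1 match 203 bases before its start. Of the Mbp windows, one held 3 matches and the other 0, and the windows of Mal, Cldn11 and Ugt8 held 0. Either word was present in 4 of the 8 windows (50%) against 29.1% of all windows. ACAAAG was present in 50% of the 8 windows and 18.8% of all windows, and ACAATG in 12.5% and 13.2%. These are letter matches and not measured binding sites.

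The arrays differed in brightness and were closer in the share of spots detected. The 75th percentile of the signal ran from 553 to 924 intensity units, and 74.2% to 81.6% of the transcript spots were well above background. Control replicates 4 and 2 were the dimmest arrays and Fe day 5 replicate 4 was the brightest. Levels were scaled to the 75th percentile of each array. No spot was saturated. Markers of the dentate gyrus, CA1 and CA3 were well above background on all 16 arrays for 11 of the 12 on the array. Their values were lower in the Fe groups on average. The mean score of these 12 markers was -0.03 in controls and -0.41, -0.48 and -0.29 at Fe day 5, day 15 and day 30. In that order 10, 11 and 10 markers were lower, and 4, 6 and 1 were lower at an unadjusted p under 0.05 by limma. Over all features 10.3%, 11.6% and 7.83% passed that threshold in either direction. The score of 6 blood markers lay above all controls in 10 of the 12 Fe arrays. Neither list had a gene called, and the part of either in the myelin values was not tested.

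Markers of tissue that adjoins the hippocampus varied too. The choroid plexus score, which is the median log2 deviation of 10 markers from their control mean, was -0.30 to 0.24 in controls, 0.20 to 3.40 at Fe day 5, -0.18 to 0.97 at Fe day 15 and -0.23 to 6.24 at Fe day 30. The score of 13 meninges and fibroblast markers was -0.07 to 0.09, 0.05 to 4.53, 0.11 to 0.81 and 0.05 to 3.37 in the same order. Fe day 5 replicates 2 and 3 and Fe day 30 replicate 3 held the highest values of both, and the member medians and the genes they touch most are also given without them.

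None of the 9 myelin genes differed between groups past the threshold, an adjusted p under 0.05 by limma's moderated test with Benjamini-Hochberg adjustment over all features. This held in all 6 pairwise comparisons and in the F-test over the 4 groups, where adjusted p ran from 0.646 for Cldn11 to 0.961 for Mog. At an unadjusted p under 0.05 the F-test passed 0 of the 9 genes beside 8.38% of all features. Within groups the genes varied together from rat to rat, and the same arrays were high or low for nearly the whole set. Levels below are log2 signals relative to the 75th percentile of the array, given in the order of replicates 1 to 4, and they are not compared between genes because probes differ in efficiency.

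Among the proteins of compact myelin, Mbp was the steadiest in controls. Mbp read 5.66, 5.56, 5.76 and 5.67 in controls, 5.68, 5.04, 5.75 and 5.97 at Fe day 5, 6.19, 5.66, 6.22 and 5.43 at Fe day 15, and 5.49, 5.69, 5.65 and 5.81 at Fe day 30. The 4 controls lay within 0.20 of one another, whereas Fe day 5 spread over 0.93 with replicate 2 below and replicate 4 above every control, and Fe day 15 had replicates 1 and 3 above and replicate 4 below. Group means were 5.66 ± 0.082 (SD, n = 4) in controls, 5.61 ± 0.40 at Fe day 5, 5.87 ± 0.39 at Fe day 15 and 5.66 ± 0.13 at Fe day 30. The differences from control were -0.05, 0.21 and -0.01 (SE 0.19 each), with adjusted p of 0.937, 0.704 and 0.996.

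Mobp, the other basic protein of the sheath, varied over a wider range. Mobp read 2.74, 2.11, 2.58 and 2.44 in controls, 2.44, 1.89, 3.04 and 3.05 at Fe day 5, 3.58, 2.69, 3.07 and 2.27 at Fe day 15, and 2.11, 2.43, 2.38 and 2.96 at Fe day 30. All Fe groups overlapped the controls, and Fe day 15 replicate 1 was the highest of all 16 arrays while Fe day 5 replicate 2 was the lowest. The differences from control were 0.14, 0.44 and 0.0033 (SE 0.30), with adjusted p of 0.879, 0.576 and 0.999.

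Mog, on the outer face of the sheath, and Mag, on the inner face, shared their highest rats. Mog read 3.66, 3.11, 3.63 and 3.33 in controls, 3.30, 2.99, 3.74 and 4.19 at Fe day 5, 4.11, 3.39, 3.77 and 3.15 at Fe day 15, and 3.22, 3.41, 3.51 and 3.68 at Fe day 30. Its highest arrays were Fe day 5 replicate 4 and Fe day 15 replicate 1, and each group overlapped the controls. The Mog differences were 0.12, 0.17 and 0.02 (SE 0.25), with adjusted p of 0.873, 0.825 and 0.986. Mag read 2.89, 2.53, 2.98 and 2.81 in controls, 2.84, 2.46, 2.92 and 3.58 at Fe day 5, 3.55, 2.85, 3.47 and 2.81 at Fe day 15, and 2.51, 2.67, 2.96 and 2.99 at Fe day 30. At Fe day 15 Mag split into a high pair, replicates 1 and 3, and a pair at the level of the controls. The Mag differences were 0.15, 0.36 and -0.02 (SE 0.23), with adjusted p of 0.833, 0.546 and 0.983.

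Cnp, the enzyme of non-compact myelin, read 3.18, 2.99, 3.21 and 2.89 in controls, 3.19, 2.97, 3.24 and 3.62 at Fe day 5, 3.65, 3.04, 3.51 and 3.16 at Fe day 15, and 2.74, 3.07, 3.17 and 3.24 at Fe day 30. Fe day 5 replicate 4 and Fe day 15 replicates 1 and 3 again stood highest. The differences were 0.18, 0.27 and -0.01 (SE 0.16), with adjusted p of 0.681, 0.529 and 0.987. Mal, the raft proteolipid, read 2.38, 1.92, 3.00 and 2.44 in controls, 2.67, 2.41, 3.05 and 3.50 at Fe day 5, 3.00, 2.81, 3.14 and 2.31 at Fe day 15, and 2.49, 2.38, 2.43 and 2.56 at Fe day 30. The controls themselves spread over 1.08 for Mal, more than for any other member, and Fe day 30 spread over 0.17. Mal had the greatest difference at day 5, 0.47 (SE 0.25, 95% interval -0.06 to 1.00, 1.39-fold), with an unadjusted p of 0.077 and an adjusted p of 0.499, followed by 0.38 at day 15 and 0.03 at day 30 (adjusted p 0.561 and 0.978). Without Fe day 5 replicate 4 the day 5 difference of Mal was 0.27.

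Cldn11, the claudin of myelin tight junctions, read 0.77, 0.23, 0.99 and 0.66 in controls, 0.77, 0.66, 1.33 and 1.43 at Fe day 5, 1.39, 1.32, 1.25 and 0.99 at Fe day 15, and 0.47, 0.71, 1.41 and 1.28 at Fe day 30. All 4 Fe day 15 arrays lay above all 4 controls, with 0.991 in the lowest of them and 0.987 in the highest control, while the other Fe groups overlapped the controls. Cldn11 was the only member whose groups did not overlap in any comparison with control, beside 4.03% of all features that were higher in this way at day 15. At day 5 and day 30, 2.67% and 2.56% of features lay above all controls. Features below all controls made up 5.11%, 5.8% and 3.68% at the 3 days, and 0 members were among them. Its mean was 0.66 ± 0.32 (SD, n = 4) in controls and 1.24 ± 0.17 at Fe day 15, a difference of 0.57 (SE 0.23, 95% interval 0.08 to 1.07, 1.49-fold). The unadjusted p was 0.026 and the adjusted p 0.381, and the difference was 0.43 without control replicate 2, with an unadjusted p of 0.092. It was 0.72 with slide as a block and 0.06 with position on the slide as a block. The differences at day 5 and day 30 were 0.38 and 0.30 (adjusted p 0.539 and 0.721). Cldn11 is also known from cells of the meninges, and at day 30 its highest array was replicate 3, where the meninges score was 3.37. Without that replicate the day 30 difference was 0.16. Without Fe day 5 replicates 2 and 3 and Fe day 30 replicate 3 the day 5 difference was 0.44, from Fe day 5 replicates 1 and 4 alone. At day 15 all 4 arrays had a meninges score above every control, 0.11 to 0.81 against at most 0.09. The part of meningeal tissue in these differences was not tested.

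Ugt8, the galactolipid enzyme, read -2.64, -3.16, -2.58 and -2.67 in controls, -2.54, -3.02, -2.42 and -1.98 at Fe day 5, -1.91, -2.51, -2.34 and -3.04 at Fe day 15, and -2.93, -2.58, -2.91 and -2.56 at Fe day 30. Its high arrays were Fe day 15 replicate 1 and Fe day 5 replicate 4, and its low ones control replicate 2, Fe day 15 replicate 4 and Fe day 5 replicate 2. The differences were 0.27, 0.31 and 0.02 (SE 0.24), with adjusted p of 0.675, 0.626 and 0.988. The Ugt8 probe was the dimmest of those chosen, with a mean signal of 127 intensity units beside 1531 for Cldn11, the next. With another background correction, normexp, the Ugt8 differences were 0.11, 0.18 and -0.0049. Sox10, the lineage factor, read 2.21, 1.90, 2.25 and 2.18 in controls, 2.25, 2.03, 2.16 and 2.81 at Fe day 5, 2.27, 1.71, 2.13 and 1.98 at Fe day 15, and 2.03, 2.31, 1.97 and 2.10 at Fe day 30. Fe day 5 replicate 4 stood alone at the top, and the Fe day 15 arrays that were high for the sheath genes were near the controls for Sox10. Sox10 differed from control by 0.18, -0.11 and -0.03 (SE 0.16), with adjusted p of 0.685, 0.822 and 0.964, and was the only member with a mean below control at day 15.

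**Figure D1:**
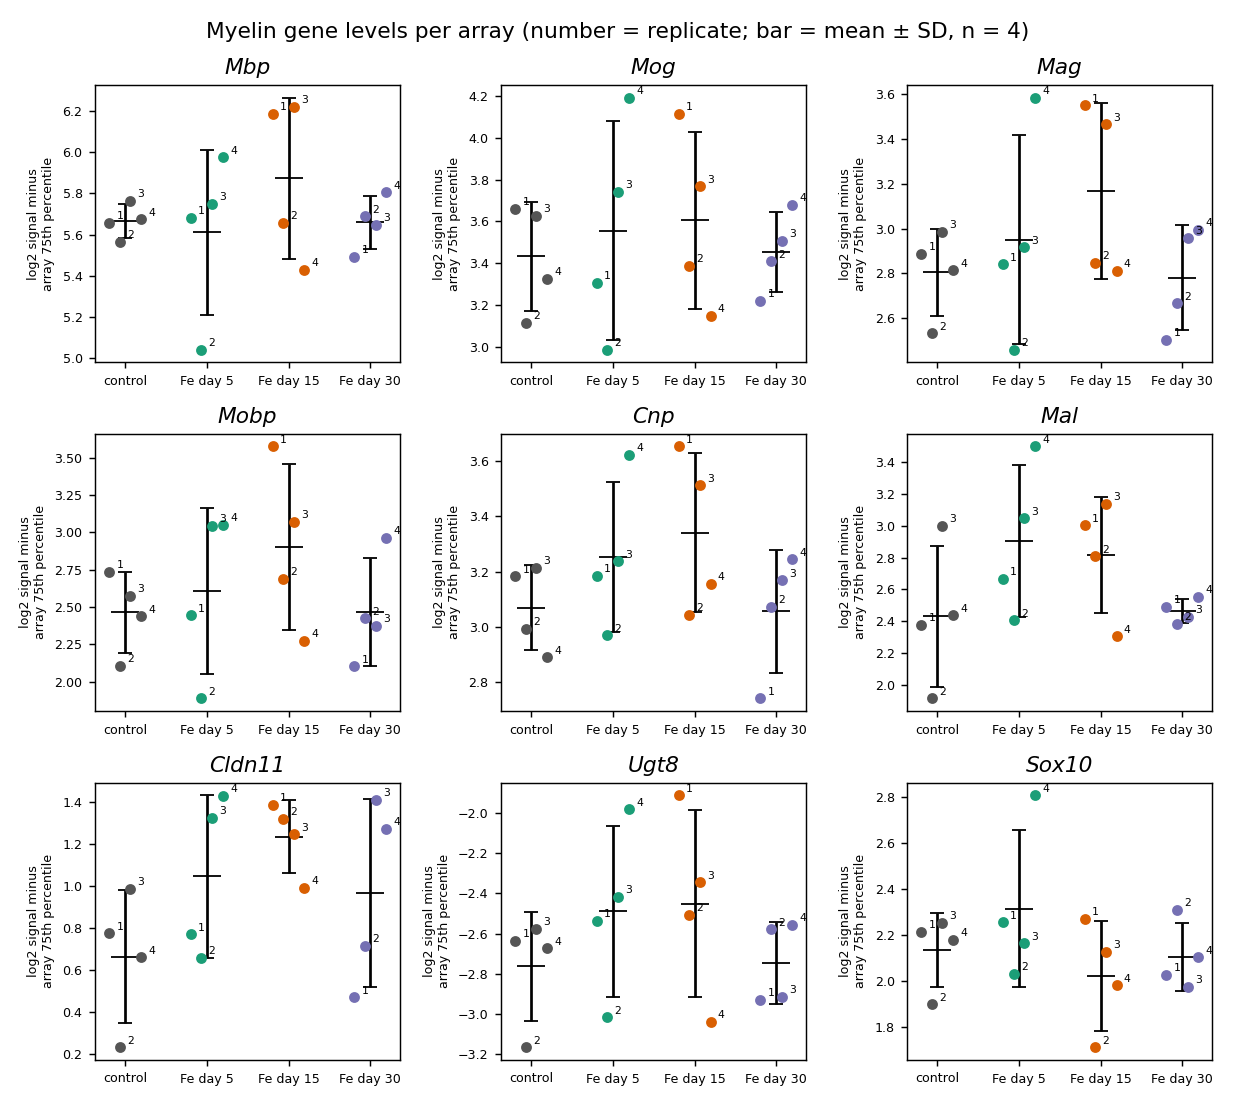
Log2 signal minus the 75th percentile of the array (vertical axis) for each of the 9 myelin genes in the saline group and at the 3 Fe times (horizontal axis), with 1 point for each rat numbered by replicate and bars for the mean ± SD (n = 4). Cldn11 at Fe day 15, 0.99 to 1.39, is the only panel and group in which the Fe points all lie above the controls.

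By comparison, 8 of 9 members had a higher mean than control at day 5 and 0 were called, where 0% of all features were called. The median difference of the members was 0.18, against -0.02 over all features, of which 45.5% were higher. At an unadjusted p under 0.05, 0 of 9 members and 10.3% of all features passed at day 5. At day 15, 8 of 9 members were again higher with a median of 0.31 (all features 0.00 to 2 decimals, 49.9% higher), 0 were called beside 0% of all features, and Cldn11 alone passed the unadjusted threshold beside 11.6% of all features. At day 30, 5 members were higher and 4 lower with a median of 0.0033 (all features -0.01), and 0 were called beside 0.00717% of all features. None passed the unadjusted threshold at day 30, where 7.83% of all features did. These 3 comparisons share the same 4 controls. Between Fe days, 7 members were higher at day 15 than at day 5 (median 0.09), 8 were lower at day 30 than at day 15 (median -0.29) and 8 were lower at day 30 than at day 5 (median -0.17). In each of these 0 members were called by limma, beside 0% of all features, and 0 members passed the unadjusted threshold, beside 7.19%, 6.46% and 3% of all features.

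**Figure D2:**
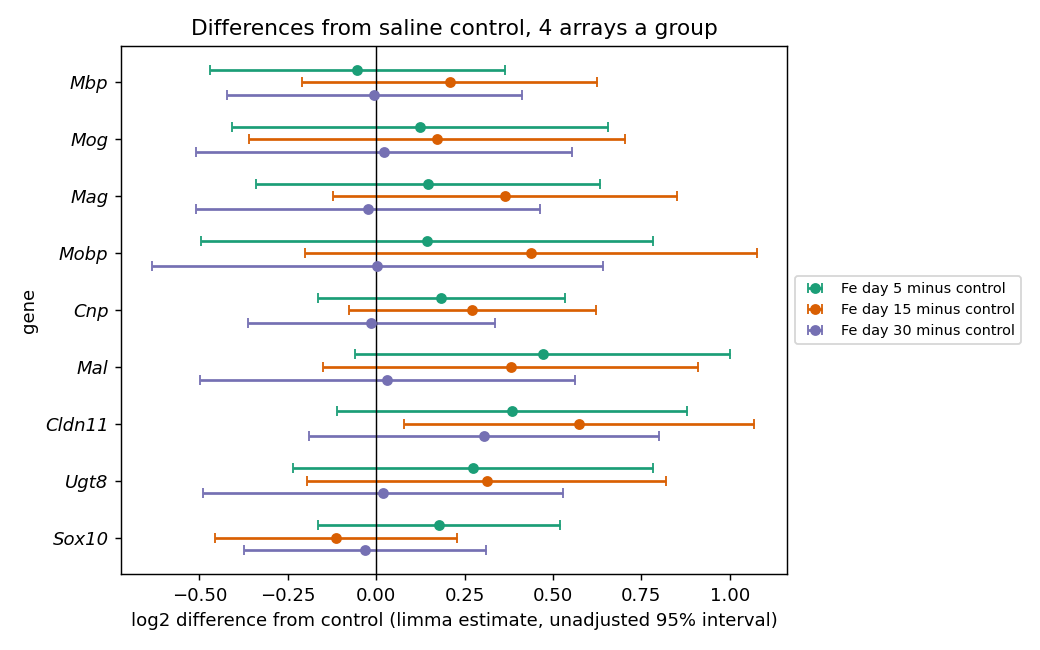
Log2 difference from saline control (horizontal axis) for each of the 9 myelin genes (vertical axis) at Fe day 5, day 15 and day 30, with limma estimates as points and unadjusted 95% intervals as bars. The intervals cross 0 except that of Cldn11 at day 15, 0.08 to 1.07, and the day 30 estimates other than Cldn11 lie between -0.03 and 0.03.

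The medians at day 5 and day 15 each depended on single rats. Without Fe day 5 replicate 4 the day 5 median was 0.01, and without Fe day 5 replicate 2 it was 0.31. Without Fe day 15 replicate 1 the day 15 median was 0.17, and without Fe day 15 replicate 4 it was 0.48. Fe day 5 replicates 2 and 3 and Fe day 30 replicate 3, where choroid plexus and meninges scores peaked, were also omitted together. The medians were then 0.40, 0.31 and 0.01 at day 5, day 15 and day 30, and 0 members were called. The day 5 value rests on Fe day 5 replicates 1 and 4 alone, and replicate 4 is the array whose own omission gave 0.01.

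Slide and place on the slide also moved with the groups. The 16 arrays lay on 7 slides, all 4 controls sat in position 1 of their slides together with Fe day 5 replicates 1 to 3, and Fe day 5 replicate 4, all of Fe day 15 and Fe day 30 replicates 1 and 2 sat in position 2. Fe day 30 replicates 3 and 4 sat in position 4. The Fe arrays that shared a slide with a control were set against it. Fe day 5 replicate 4 was higher than control replicate 1 for 9 of 9 members (median 0.59), and on the slide of control replicate 2 both Fe day 15 replicate 1 (median 1.02) and Fe day 30 replicate 3 (median 0.27) were higher for 9 of 9. However, control replicate 2 was the lowest control for 8 of the 9 members. Against the mean of the controls, Fe day 30 replicate 3 was higher for 4 and lower for 5. Beside control replicate 4, Fe day 15 replicate 3 was higher for 8 of 9 (median 0.59). Beside control replicate 3, Fe day 15 replicate 2 was higher for 3 and lower for 6 (median -0.14), and Fe day 30 replicate 4 was higher for 7 and lower for 2 (median 0.03). With slide as a block in the fit the medians were 0.53, 0.49 and 0.27. In position 1 alone, the 3 Fe day 5 arrays against the 4 controls gave a median of 0.01 with 5 of 9 members higher, from -0.17 for Mbp to 0.27 for Mal. With position as a block the medians were 0.01, -0.36 and -0.66, values that rest on Fe day 5 replicate 4 as the only link from position 1 to the others. No Fe day 15 or Fe day 30 array sat in position 1, so for these groups position and iron cannot be told apart by a direct comparison.

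The clearest pattern of the set was its joint variation within groups. The member score of an array, the median over the 9 genes of the deviation from the control mean, was 0.11, -0.32, 0.18 and 0.01 in controls, 0.11, -0.25, 0.31 and 0.76 at Fe day 5, 0.68, 0.04, 0.56 and -0.15 at Fe day 15, and -0.19, 0.00, -0.01 and 0.19 at Fe day 30. Fe day 5 held both the highest score of the series and the second lowest, and Fe day 15 split into a high pair and a pair within the range of the controls. Fe day 5 replicate 4 and Fe day 15 replicate 1 lay above the highest control for 9 of 9 genes, and Fe day 15 replicate 3 did so for 8, Fe day 30 replicate 4 for 7 and Fe day 5 replicate 3 for 6. Control replicate 2 lay below the control mean for 9 of 9, and control replicate 3 and Fe day 5 replicate 3 lay above it for 9 of 9. Within Fe day 5, replicate 4 was the highest and replicate 2 the lowest for 9 of 9 genes.

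The range from the lowest to the highest rat was 0.65 to 1.21 across members at Fe day 5, which is 1.57-fold for Cnp to 2.31-fold for Mog. It was 0.40 to 1.30 at Fe day 15, 0.17 to 0.94 at Fe day 30 and 0.20 to 1.08 in controls. The median SD of a member was 0.26 in controls, 0.43 at Fe day 5, 0.39 at Fe day 15 and 0.20 at Fe day 30, against 0.13, 0.18, 0.18 and 0.18 over all features. The difference in spread between groups was not tested.

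Over the 16 arrays the 36 pairs of members correlated at Pearson's r of 0.23 to 0.94 (median 0.77), and deviations from the group means at 0.38 to 0.94 (median 0.79). These are descriptions over arrays that share labelling, slide and scaling. Pairs within other gene lists were not correlated for reference, so it is not known whether such joint variation is particular to this set. Mag (r = 0.94), Ugt8 (0.93) and Mog (0.93) followed the score of the other 8 members most closely, Cnp (0.89), Mobp (0.88), Mal (0.85) and Mbp (0.83) came next, and Cldn11 (0.72) and Sox10 (0.62) followed it least. Second probes followed the chosen probe at r = 0.99 for Mbp, 0.97 for Mog and 0.79 for Mobp, while the second Ugt8 probe was well above background on 0 of 16 arrays.

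Outside the set, the genes with a symbol most like the member score, among 9575 candidates, included C11h21orf91 (r = 0.94), Akr7a3 (0.93), Tprn (0.92), Ceacam4 (0.92), Chn2 (0.91), Tspan2 (0.91), Josd2 (0.91), Septin4 (0.91) and Lpar1 (0.91), over 16 arrays. Tspan2, Josd2, Septin4 and Lpar1 belonged to the oligodendrocyte lists used below. Without Fe day 5 replicate 4 and Fe day 15 replicate 1, the arrays farthest from the median, r of these 9 genes was 0.79 to 0.87.

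Scores of other lineage lists were set beside the member score on Fe day 5 replicate 4 and Fe day 15 replicate 1, where it was highest. They were also set beside it on Fe day 5 replicate 2, the lowest Fe array. Control replicate 2, the lowest of all arrays (-0.32), and Fe day 15 replicate 3 (0.56) are not set out here. In Fe day 5 replicate 4 the list score was 0.40 for 19 other genes of myelin structure and adhesion, 0.49 for 11 oligodendrocyte transcription factors and signalling genes, 0.36 for 20 mature oligodendrocyte genes of other roles and 0.20 for 13 enzymes of myelin lipids. In Fe day 15 replicate 1 these scores were 0.40, 0.39, 0.40 and 0.23, and in Fe day 5 replicate 2 they were -0.32, -0.27, -0.28 and -0.04. The 14 genes of oligodendrocyte precursors scored 0.03, -0.05 and -0.12 in the same 3 arrays, the 14 neuron markers -0.08, -0.12 and -0.09, and the 12 astrocyte markers -0.11, 0.20 and -0.07. These 3 arrays were outside the control range for the structure, regulator and mature lists. They were also outside it for neuron markers (controls -0.04 to 0.07) and astrocyte markers (controls -0.06 to 0.02). The precursor scores of Fe day 15 replicate 1 and Fe day 5 replicate 2 lay below those of the controls (-0.04 to 0.05). In Fe day 5 replicate 2 the structure, regulator and mature lists lay below the member score of -0.25. Fe day 5 replicate 3 did not share the pattern: its member score was 0.31, while the 4 lists scored 0.07, 0.01, 0.07 and -0.01 in the order above, all within the control range. Precursor scores in all 16 arrays lay between -0.14 and 0.12. In whole tissue, more oligodendrocytes or white matter in a sample and more RNA per cell cannot be told apart. Fe day 5 replicate 2 was also among the arrays with the highest choroid plexus and meninges scores. The part of such tissue in its low values was not tested.

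**Figure D3:**
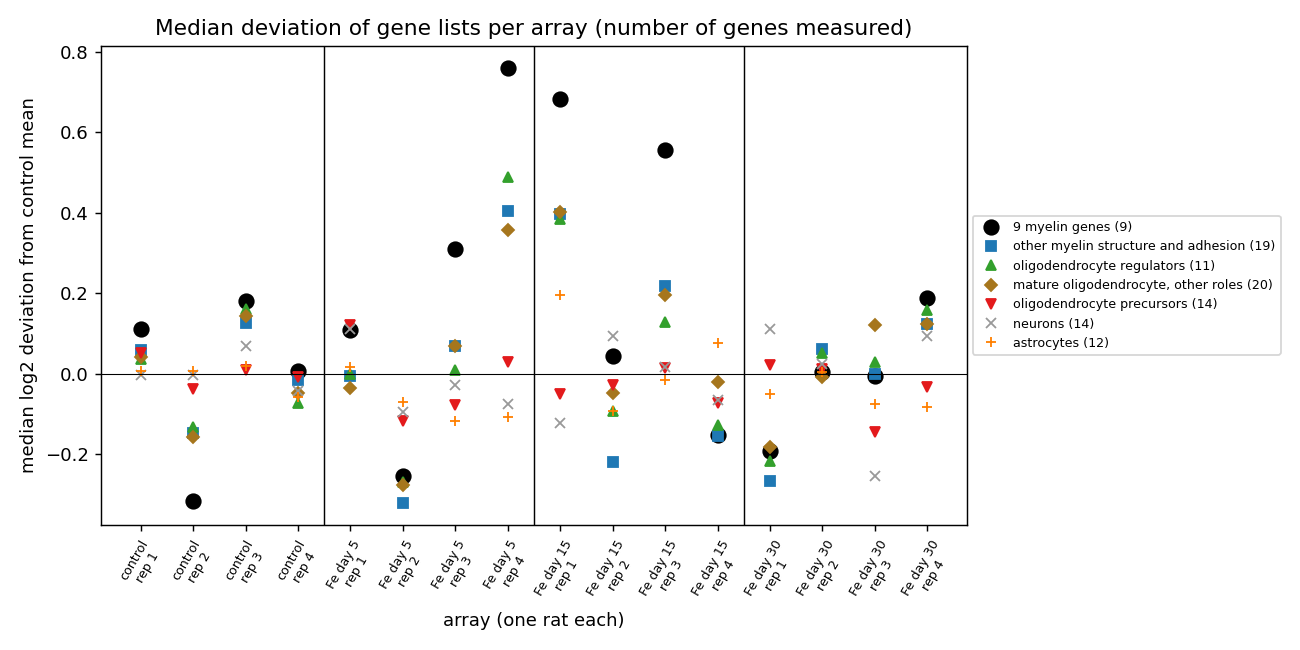
Median log2 deviation from the control mean (vertical axis) of the 9 myelin genes and of 6 other gene lists on each of the 16 arrays in group order (horizontal axis), with the number of genes measured in the legend. The myelin genes reach 0.76 in Fe day 5 replicate 4, where the lists of other structure genes, regulators and mature genes of other roles lie at 0.36 to 0.49 and the precursor list at 0.03.

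By comparison with control, 0 genes of these lists were called at any day, beside 0%, 0% and 0.00717% of all features at day 5, day 15 and day 30. Of the 19 other structure and adhesion genes, 12, 10 and 8 were higher at day 5, day 15 and day 30, with medians of 0.05, 0.01 and -0.01. At an unadjusted p under 0.05 by limma 0 of the 19 passed at any day, beside 10.3%, 11.6% and 7.83% of all features. Cd82, a tetraspanin, had the lowest p of that list at day 5, at 0.26 (SE 0.14, adjusted p 0.501). Of the 13 lipid enzymes, 8, 9 and 9 were higher (medians 0.03, 0.04 and 0.08). Elovl1, an elongase of very long fatty acids, differed by 0.25 at day 5 and 0.31 at day 15 (SE 0.12, adjusted p 0.481 and 0.353). Aspa, which frees acetate from N-acetylaspartate, differed by 0.31 at day 15 (SE 0.14, adjusted p 0.428).

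Of the 11 transcription factors and signalling genes, 7 were higher at each day (medians 0.07, 0.04 and 0.04). Il33, an alarmin cytokine, stood apart in this list at -0.26, -0.34 and -0.39 (SE 0.12), with adjusted p of 0.476, 0.332 and 0.525. Of the 20 mature oligodendrocyte genes of other roles, 13, 15 and 12 were higher (medians 0.03, 0.13 and 0.03). Gamt, which completes creatine synthesis, differed by 0.27 at day 5, 0.47 at day 15 and 0.08 at day 30 (SE 0.11), with an adjusted p of 0.469, 0.188 and 0.842.

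Of the 14 precursor genes, 6, 6 and 5 were higher and 8, 8 and 9 lower, with medians of -0.03, -0.07 and -0.03. Single genes ran from -0.56 to 0.44 at day 5, -0.37 to 0.76 at day 15 and -0.30 to 0.42 at day 30. At an unadjusted p under 0.05 by limma, 2, 1 and 1 were higher and 0, 0 and 2 lower. Over all features 10.3%, 11.6% and 7.83% passed in either direction. The 2 lower at day 30 are not among the precursor genes named below. Those named were mostly higher than control, unlike most of their list. Pdgfra, the growth factor receptor of precursors, differed by 0.40 at day 5 (SE 0.14, adjusted p 0.469) and by -0.10 at day 15 (adjusted p 0.829). Pdgfra is also expressed by fibroblasts of the meninges, whose markers were high in Fe day 5 replicates 2 and 3. Without those arrays and Fe day 30 replicate 3 its day 5 difference was 0.21 (adjusted p 0.562), with Fe day 5 replicates 1 and 4 left. Cspg4, another precursor gene, differed by 0.09, 0.11 and 0.14 (SE 0.084, adjusted p 0.689, 0.611 and 0.663). Cspg4 did not pass the unadjusted threshold at any day. Sox11, a factor of immature neurons and progenitors, differed by 0.76 at day 15 (SE 0.18, adjusted p 0.189). Of 9 genes of Schwann cells and peripheral myelin, 6, 4 and 3 were higher. Egr2, which drives myelination by Schwann cells and is also an activity-induced gene of neurons, differed by -0.87, -1.01 and -1.51 (SE 0.34), with adjusted p of 0.469, 0.322 and 0.312. Without the same 3 arrays its day 5 difference was -0.44.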

How the data were processed

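RNA from 16 rat hippocampi was hybridised to 1-colour Agilent arrays. Per the submitters' processing notes, images were read with Agilent Feature Extraction 9.5, and the deposited intensity values are background-subtracted processed signals on a linear scale, per the file headers. Of 45018 spots 1639 were controls. Log2 of the processed signal was taken, less its 75th percentile on that array. Spots flagged as outliers were left out, spots of a probe were averaged, and a probe was kept if 1 or more groups had it well above background on every array (30544 of 41012). Symbols came from a RefSeq table on GRCr8, used for names, which matched 15175 of 19715 RefSeq mRNA probes. The brightest probe of a gene was used, which left 27885 features, 9584 with a symbol, and the others as single probes.

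A model with 1 mean for each group was fitted to the 16 arrays together, leaving 12 residual degrees of freedom, using limma 3.58.1 (R 4.3.3). Tests were two-sided and adjusted by Benjamini-Hochberg over all features, with a threshold of 0.05. A p-value here reflects the spread between rats of a group, and precision is limited by the number of arrays. The fit was tested on simulated data. The deposited series table equalled the processed signal in all entries at a relative tolerance of 1e-06 and was not a separate alternative. Alternatives were normexp background correction (offset 50), quantile and median scaling, no filter on dim probes, the mean of a gene's probes, slide or replicate number as a block, array weights, only the groups compared, and each array left out. Normexp was run on the median spot signal because the mean spot signal was not among the columns used here. The joint omission of 3 arrays and the position block were chosen after seeing the data.

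All 9 members were named. From each other list the genes of lowest unadjusted p were eligible, at most 3 for each comparison with control, and the 10 genes most alike over the arrays were named. Of these 10, 1 is not reported here. Cspg4, together with the values of listed genes at other days, was chosen after values were seen. Replicate numbers of the labels were not taken to pair the rats. The members and lists were chosen with earlier results of these data known. The treatment text of the labels speaks of mice in places, while the organism is given as rat.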

Additional observations from a re-analysis of the deposited data

Results flagged for a closer look

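In 1 of the 40 sets of 4 arrays examined (the 9 genes and the member score, in each group), an array stood far from the rest of its group. Ugt8 read -3.16 in control replicate 2, while the other controls read -2.67 to -2.58. The gap was 0.84 of the range of the group, above the critical 0.829 for 4 values. Chance gives such a gap in about 1 of 20 sets. The same rat had the lowest control value for 8 of the 9 myelin genes.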

How the results depend on the processing

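No member was called under any alternative, and the adjusted p of Cldn11 at day 15 ranged from 0.18 (array weights) to 0.96 (position block). Of 162 medians under the alternatives, 156 moved by less than the spread between rats and 13 changed sign. That spread is wide beside the medians. The SD of the member score was 0.22 in controls, 0.42 at Fe day 5 and 0.40 at Fe day 15, while the day 5 median was 0.18. A median could change sign and still be among the 156, so that count does not show that the medians were stable. Slide as a block gave medians of 0.53 at day 5 and 0.27 at day 30. Position as a block gave -0.36 at day 15, -0.66 at day 30, -0.42 for day 15 minus day 5 and -0.79 for day 30 minus day 5. The cause of these shifts was not tested. Leaving out 1 array gave 0.01 to 0.31 at day 5, 0.17 to 0.48 at day 15, -0.11 to 0.08 at day 30, -0.02 to 0.26 for day 15 minus day 5, -0.36 to -0.18 for day 30 minus day 15 and -0.30 to 0.01 for day 30 minus day 5. Same-numbered replicates correlated at -0.41 to 0.39, and 5 of 24 pairs exceeded 0.1. Differently numbered replicates were not correlated for reference, so these values do not settle whether the numbers pair rats. With the replicate block the medians were 0.18, 0.31 and 0.0033, and 0 members were called. Over all features, 183 were called at day 15 and 25 at day 30 with array weights, against 0 and 2, and 8 and 10 at day 30 with quantile and median scaling. Position as a block called 15 features at day 15, 18 at day 30, 23 for day 15 minus day 5, 9 for day 30 minus day 15 and 27 for day 30 minus day 5. Without Fe day 15 replicate 4, 9 were called at day 15 and 13 for day 15 minus day 5, and without Fe day 5 replicate 4, 10 at day 30. Among control comparisons, the other alternatives gave 0 to 3. Each group of 4 arrays leaves a difference of a member with a standard error of 0.16 to 0.30.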
